A study of Mus musculus with 89 samples.

Results

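Pou5f1, Sox2, Nanog, Sall4 and Utf1 were followed across RNA-seq of mouse ESCs that lacked the orphan nuclear receptors Esrrb, Nr5a2 or both. The 5 genes are defined by name, and each is 1 of 54146 gene rows in the deposited tables. Pou5f1 (Oct4) and Sox2 encode DNA-binding proteins that occupy composite sites as partners and activate much of the ESC programme, including their own genes. Nanog encodes a homeodomain factor that holds cells in self-renewal and is high in naive cells. Sall4 encodes a zinc-finger factor that binds Oct4 and the NuRD chromatin complex. Utf1 encodes a chromatin-associated protein of pluripotent cells and is a textbook target of Oct4 and Sox2. Esrrb and Nr5a2 bind related motifs as monomers, and Esrrb is known to work alongside these factors in ESCs.

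RNA-seq libraries came from 4 states in each of 2 media. Every state carried knocked-out endogenous Esrrb alleles and a Dox-inducible Esrrb transgene (EKOiE). +E+N is EKOiE with Dox at 1 µg/ml, and −E is EKOiE after 2 days without Dox. −N is the NrKO derivative, in which the exon for the DNA-binding domain of Nr5a2 was disrupted on both alleles, with Dox, and −E−N is NrKO after 2 days without Dox. Cells grew in FCS/LIF (serum and LIF; n = 2 per state) or 2i/LIF (the inhibitors PD0325901 and CHIR99021 with LIF; n = 3 per state). NrKO is a derived line, so line and loss of Nr5a2 cannot be told apart, and medium cannot be told apart from the batch of cultures and libraries. The study describes the RNA-seq replicates of each group as independent experiments, and the labels do not name the cultures.

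Total counts per library ranged from 36514172 to 45443379 (FCS/LIF) and from 26653035 to 32526534 (2i/LIF), and replicates of every state differed by more than sampling noise (chi-square per degree of freedom 4.40 to 29.4). The targeted genes were checked in CPM, counts per 1000000 of the library total after TMM scaling over all 20 libraries, as used for every level below unless TPM is named. In FCS/LIF, Esrrb stood at 271 and 352 CPM with Dox, at 65.1 and 74.2 CPM for −E, and at 28.9 and 31.3 CPM for −E−N. In 2i/LIF the difference was smaller, from 515 to 608 CPM in +E+N to between 380.0 and 441 in −E (log2 fold change -0.46, adjusted p = 0.116) and to between 104 and 171 CPM without both. In −N, Esrrb ranged from 219 to 259 CPM (FCS/LIF) and from 414 to 530.3 CPM (2i/LIF). The 2i/LIF libraries labelled −E therefore kept most of their Esrrb count, and this count sums transgene and any transcript of the disrupted gene. The count is of RNA, and how much Esrrb protein or binding remained was not analysed here. Nr5a2 counts cover all exons and include transcript of the disrupted alleles (25.5 to 27.1 CPM in −N against 36.1 to 39.8 in +E+N, FCS/LIF; 63.9 to 78.4 against 61.8 to 80.1, 2i/LIF). Other values in the 2i/LIF libraries labelled −E did differ from +E+N: Esrrb was at 123 ± 9.83 TPM against 237 ± 44.995 (SD, n = 3), and the naive factor gene Nr0b1 was at 8.05 ± 3.98 CPM against 33.3 ± 9.79 (log2 fold change -2.04, adjusted p = 0.00276).

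In mm10 the 5 genes lie on 5 chromosomes. Pou5f1 (ENSMUSG00000024406) spans 35506018 to 35510772 on chromosome 17, plus strand. Sox2 (ENSMUSG00000074637), a gene of 1 exon, spans 34650405 to 34652461 on chromosome 3, plus strand, inside an intron of the noncoding gene Sox2ot on the same strand, with 0 shared exonic bases. Nanog (ENSMUSG00000012396) spans 122707489 to 122714633 on chromosome 6, plus strand. Sall4 (ENSMUSG00000027547) spans 168748332 to 168767943 on chromosome 2, minus strand. Utf1 (ENSMUSG00000047751) spans 139943789 to 139945112 on chromosome 7, plus strand. The opposite strand holds Gm19553 at Pou5f1 (317 shared exonic bases, 0 to 7 counts per library) and Gm14261 at Sall4 (526 shared exonic bases, 4 to 55 counts). Nanog transcripts share a stretch of 200 to 245 bases at an identity of at least 90% with transcripts of 52 other genes, the longest with Nanog-ps1, which had 0 counts in every library.

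RefSeq promoter windows (GRCm38.p6, the assembly of mm10), from 250 bases before to 50 after a start, were given for 4 of the 5 genes, all but Sall4. The starts here and below are RefSeq's and can differ from the spans above, as for Sox2 (34649995 against 34650405). They were searched on both strands for TCAAGGTCA and TCAAGGCCA, the variants of the motif that Esrrb and Nr5a2 share. None of the 6 windows held TCAAGGTCA, which stands in 0.423% of all 32851 windows, or TCAAGGCCA, which stands in 0.591%. Only exact matches were sought here and below. The study's own scan also accepted 1 mismatch, and such near matches were not searched. The shorter core AGGTCA, contained in the first variant and present in 16.3% of windows, stood in the Sox2 window, in 1 Nanog window and in 1 Pou5f1 window. The Nanog promoter also held the Sox site CATTGT followed after 1 base by the octamer letters ATGCAAA, on the minus strand, a combination that stands in 2 of the 32851 windows, both of them Nanog's. The shorter core, the composite and the wider windows were searched after the values had been seen. The 250 bases before 3 of these starts are shown, for Nanog, Sox2 and Pou5f1. These windows hold letters that were searched, and the 3 genes were called lower in FCS/LIF −E−N. Utf1 was called lower as well. Its window holds none of the letters searched but does hold AGGCCA, the core of the second variant, which was not searched. Capitals mark the AGGTCA core on either strand and, in Nanog, the composite site.
Nanog, chr6:122707239-122707488, plus strand: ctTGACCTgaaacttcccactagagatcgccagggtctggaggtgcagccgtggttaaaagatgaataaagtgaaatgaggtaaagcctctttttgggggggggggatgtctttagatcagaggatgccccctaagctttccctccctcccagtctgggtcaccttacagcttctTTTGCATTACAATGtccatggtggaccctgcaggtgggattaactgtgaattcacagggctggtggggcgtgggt
Sox2, chr3:34649745-34649994, plus strand: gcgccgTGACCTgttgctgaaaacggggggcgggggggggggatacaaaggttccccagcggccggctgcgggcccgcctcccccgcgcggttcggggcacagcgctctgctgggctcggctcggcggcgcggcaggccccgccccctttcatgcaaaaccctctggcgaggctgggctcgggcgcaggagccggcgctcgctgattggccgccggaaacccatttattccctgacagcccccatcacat
Pou5f1, chr17:35505782-35506031, plus strand: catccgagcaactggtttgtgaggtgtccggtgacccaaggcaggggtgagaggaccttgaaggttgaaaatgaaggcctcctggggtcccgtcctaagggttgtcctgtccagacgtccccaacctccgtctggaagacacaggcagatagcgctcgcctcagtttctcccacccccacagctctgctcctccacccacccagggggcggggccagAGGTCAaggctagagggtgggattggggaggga

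Within 10000 bases of the start, 75.2% of all windows held 1 or both motif variants, so a match here is common. Of these matches, 6 of the 9 near the 4 genes stood in sequence that the assembly marks as repeats, including both near Pou5f1. The other 3 are shown with 10 bases on each side, on the strand of the motif, with the motif in capitals. They lie before Nanog, after Sox2 and before Utf1.
Nanog, chr6:122702913-122702941, minus strand, centre at -4562 from the start: gtccacggagTCAAGGCCAccatagcctt
Sox2, chr3:34655034-34655062, plus strand, centre at 5053 from the start: actggactttTCAAGGTCAaagagcaatg
Utf1, chr7:139934562-139934590, plus strand, centre at -9280 from the start: cagtacctggTCAAGGTCAaggaccaact
A match is a description of letters, and binding was not analysed here.

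The first comparison was of the media, in cells with both receptors. Nanog was higher in 2i/LIF, Utf1 and Sall4 were lower, and the estimates of Pou5f1 and Sox2 did not pass. Of the 5 genes, 3 were called, meaning an adjusted p (Benjamini-Hochberg over all tested genes, edgeR's quasi-likelihood test) under 0.01 and a fold change over 1.5. Of all 16147 genes tested, 34.7% were called.

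Nanog was at 286 and 234 CPM in the FCS/LIF libraries and at 786, 937 and 1008 CPM in the 2i/LIF libraries. The groups were far apart, a 3.50-fold rise (log2 fold change 1.81, SE 0.117, adjusted p = 1.32e-09). Utf1 went from 322 and 306 CPM to 23.5, 46.4 and 48.6 CPM, 7.97-fold lower (log2 fold change -2.99, SE 0.415, adjusted p = 9.79e-06). Utf1 thus varied about 2.07-fold among the 2i/LIF libraries, a range much smaller than the gap between media. Sall4 went from 283 and 264 CPM to 179, 177 and 171 CPM, 1.55-fold lower (log2 fold change -0.64, SE 0.0761, adjusted p = 1.91e-06).

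Pou5f1 was at 1375 and 1240.2 CPM in FCS/LIF and at 1397, 1339 and 1285 CPM in 2i/LIF, so the groups overlapped. Its log2 fold change was 0.04, with a 95% interval from -0.25 to 0.32, and its sign turned under other settings. Sox2 was at 377 and 345 CPM in FCS/LIF and at 236, 293 and 275 CPM in 2i/LIF, without overlap. Its difference missed the limits (log2 fold change -0.43, 95% interval -0.73 to -0.13, adjusted p = 0.0160).

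Levels of different genes were compared in the deposited TPM values, which correct for transcript length. In FCS/LIF +E+N the order was Pou5f1 at 1388 ± 53.7 TPM (SD, n = 2), Utf1 at 381 ± 0.502, Sox2 at 232 ± 6.16, Nanog at 154 ± 16.5 and Sall4 at 92.3 ± 2.56. In 2i/LIF +E+N it was Pou5f1 at 1370.0 ± 18.3 TPM (SD, n = 3), Nanog at 529 ± 81.4, Sox2 at 169 ± 22.5, Sall4 at 60.7 ± 0.0929 and Utf1 at 46.3 ± 17.3. Pou5f1 stood first in all 8 groups, at rank 122 to 161 among genes by mean TPM. Utf1 went from the second place in FCS/LIF to the last in 2i/LIF +E+N, where its range of 26.4 to 58.0 TPM lay next to that of Sall4. Sall4 and Utf1 were the lowest pair in all 2i/LIF states, and their order turned in −N, where Utf1 ranged from 29.4 to 85.0 TPM around Sall4 at 55.6 to 58.5.

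**Figure D1:**
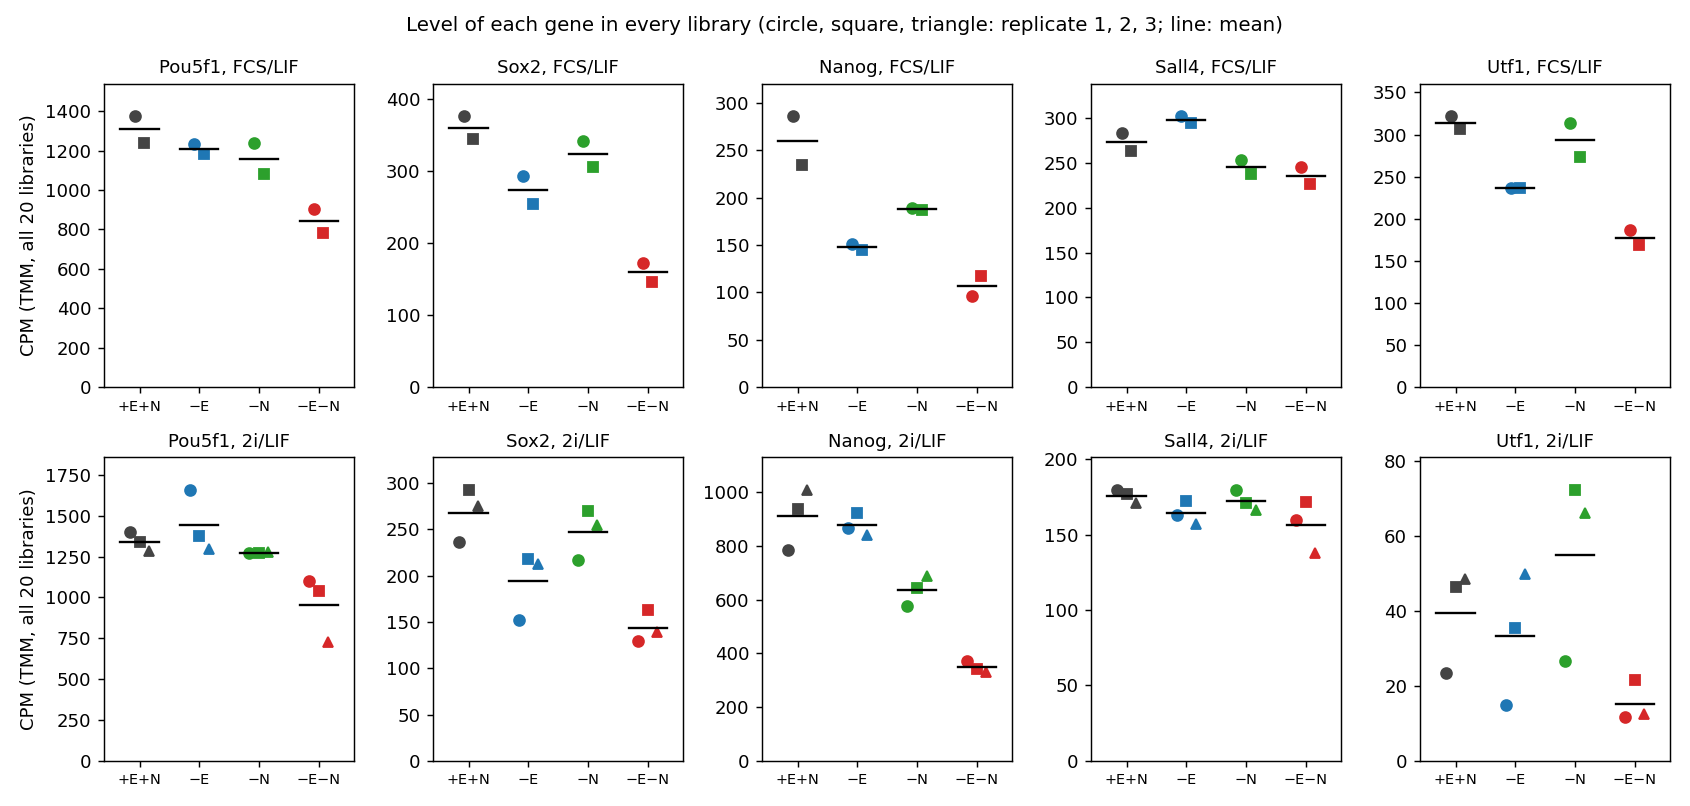
Level of each gene in CPM (TMM over all 20 libraries; each axis starts at 0) in every library of the 4 states, with FCS/LIF in the upper row (n = 2) and 2i/LIF in the lower row (n = 3), where points are libraries and lines are means. The lowest state is −E−N for 5 of 5 genes in both media, while Sall4 stays between 138 and 179.7 CPM in every 2i/LIF library.

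In FCS/LIF, loss of both receptors lowered Nanog, Sox2, Utf1 and Pou5f1. Loss of Esrrb alone lowered only Nanog past the limits, and loss of Nr5a2 alone lowered none of the 5 genes past them. Nanog fell 2.46-fold in −E−N, Sox2 2.29-fold, Utf1 1.79-fold and Pou5f1 1.57-fold. In −E−N against +E+N, 4 of the 5 genes were called, all lower, beside 18.8% of the 15636 genes tested in either direction. In −E, 1 of 5 was called (Nanog), beside 5.76% of genes. In −N, 0 of 5 were called by edgeR, by DESeq2 or by limma on TPM, beside 0.173% of genes, and 2 (Nanog and Sall4) had an unadjusted p under 0.05.

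For Nanog, the libraries of +E+N stood at 286 and 234 CPM, of −E at 151 and 145, of −N at 189.6 and 187, of −E−N at 96.6 and 118. The states followed each other without overlap. The log2 fold change reached -0.83 for −E (SE 0.110, adjusted p = 0.00130), -0.48 for −N (SE 0.109, adjusted p = 0.0645) and -1.30 for −E−N (SE 0.111, adjusted p = 3.88e-05). The call in −E was lost without either −E library, at log2 fold changes of -0.85 and -0.79.

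For Sox2, the libraries of +E+N stood at 377 and 345 CPM, of −E at 293 and 255, of −N at 342 and 305, of −E−N at 173 and 147. The −E−N libraries stood well below the other 6. Its log2 fold change was -0.42 for −E (SE 0.0979, adjusted p = 0.0189), -0.18 for −N (SE 0.0977, adjusted p = 0.429) and -1.20 for −E−N (SE 0.0995, adjusted p = 3.23e-05).

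For Utf1, the libraries of +E+N stood at 322 and 306 CPM, of −E at 237 and 237, of −N at 314 and 273, of −E−N at 186 and 169. −N overlapped +E+N, while −E and −E−N lay below both. The double loss changed it by -0.84 on the log2 scale (SE 0.0749, adjusted p = 4.54e-05). In −E the difference of -0.42 had an adjusted p of 0.00497 but a fold of 1.34, under the limit. In a fit of all 20 libraries, where the spread in 2i/LIF enters, the call in −E−N was lost (log2 fold change -0.82, SE 0.444, adjusted p = 0.164).

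For Pou5f1, the libraries of +E+N stood at 1375 and 1240.2 CPM, of −E at 1232 and 1183, of −N at 1238 and 1082, of −E−N at 904 and 782. The −E−N libraries lay below all 6 others, and −E and −N overlapped. The fall in −E−N (log2 fold change -0.65, SE 0.0877, adjusted p = 0.000436) was close to the fold limit. It dropped under that limit without +E+N replicate 1 (-0.57), without −E−N replicate 2 (-0.56), with no TMM factor (-0.57) and in limma on TPM (-0.49).

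For Sall4, the libraries of +E+N stood at 283 and 264 CPM, of −E at 302 and 295, of −N at 253 and 238, of −E−N at 245 and 226. −E was the highest state, and −N and −E−N overlapped. No difference passed the limits: the log2 fold change was 0.11 for −E (95% interval -0.03 to 0.25), -0.17 for −N (-0.31 to -0.03) and -0.23 for −E−N (-0.37 to -0.09). In TPM the difference in −E−N was 0.00 on the log2(TPM + 1) scale, as Sall4 was at 92.3 TPM in +E+N and 92.6 in −E−N. In −E it was at 114 TPM, and across settings its log2 fold change in −E reached 0.30, under the fold limit.

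**Figure D2:**
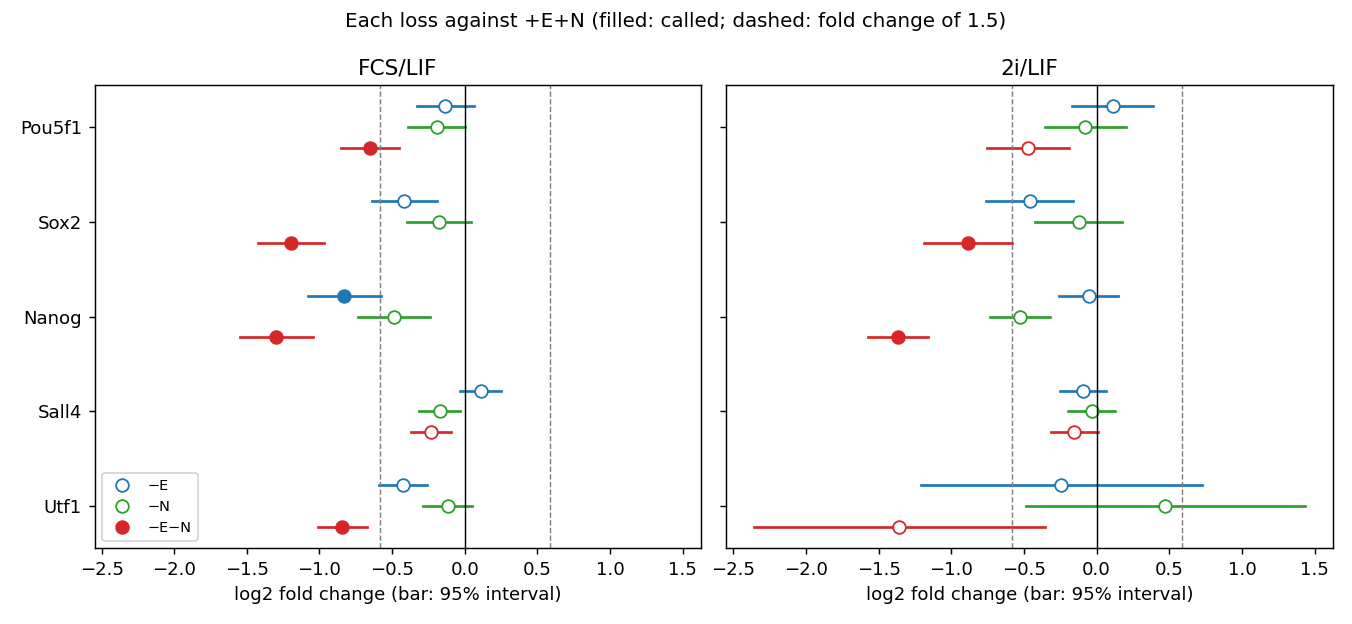
Log2 fold change of each gene against +E+N in −E, −N and −E−N (points; bars are 95% intervals), with FCS/LIF on the left and 2i/LIF on the right; filled points are called and dashed lines mark a fold of 1.5. The filled points are Nanog, Sox2, Utf1 and Pou5f1 in −E−N and Nanog in −E in FCS/LIF, and Nanog and Sox2 in −E−N in 2i/LIF, and the 2i/LIF intervals of Utf1 are much wider than the others.

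In 2i/LIF, the double loss lowered Nanog 2.58-fold and Sox2 1.85-fold, and neither loss alone lowered any of the 5 genes past the limits. In −E−N against +E+N, 2 of 5 were called, both lower, beside 18.6% of 14355 genes. In −E, 0 of 5 were called, beside 1.55% of genes. In −N, 0 of 5 were called, beside 3.65%. DESeq2 and limma on TPM also called 0 in −E and in −N, and an unadjusted p under 0.05 was reached by 1 gene in −E (Sox2) and by 1 in −N (Nanog).

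Nanog was at 786, 937 and 1008 CPM in +E+N and 865, 922 and 839 in −E, so these states overlapped. It was at 575, 642 and 688 CPM in −N and at 372, 344 and 332 in −E−N, each below all libraries of the state before. Its log2 fold change was -0.05 for −E (95% interval -0.26 to 0.15), -0.53 for −N (SE 0.0942, adjusted p = 0.00407, fold 1.44) and -1.37 for −E−N (SE 0.0957, adjusted p = 5.61e-07). Without +E+N replicate 1 the value in −N was -0.62 and called.

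Sox2 was at 236, 293 and 275 CPM in +E+N and at 153, 218 and 213 in −E, where every library lay below +E+N. It was at 216, 270.3 and 254 CPM in −N, overlapping +E+N, and at 129.6, 163 and 139 in −E−N, overlapping −E. The log2 fold change was -0.46 for −E (SE 0.138, adjusted p = 0.0736), -0.12 for −N (SE 0.138, adjusted p = 0.644) and -0.88 for −E−N (SE 0.139, adjusted p = 0.000292).

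Pou5f1 was at 1397, 1339 and 1285 CPM in +E+N, 1658, 1376 and 1298 in −E, and 1274, 1273 and 1276 in −N. In −E−N it was at 1099, 1042 and 727 CPM, below all 9 other libraries and lowest in replicate 3. Its log2 fold change in −E−N was -0.47 (SE 0.129, adjusted p = 0.0110), -0.32 without replicate 3 of −E−N, and -0.59 and called without replicate 1 of −E−N. In −E it was 0.11 (95% interval -0.17 to 0.39).

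For Utf1, the libraries of +E+N stood at 23.5, 46.4 and 48.6 CPM, of −E at 14.9, 35.4 and 49.9, of −N at 26.5, 72.3 and 66.2, of −E−N at 11.8, 21.6 and 12.4. All 3 −E−N libraries lay below those of +E+N and −N, and they overlapped −E. The log2 fold change in −E−N was -1.36, as large as that of Nanog, but its SE was 0.461 and its adjusted p 0.0327. Sall4 lay between 171 and 179 CPM in +E+N and between 138 and 172 in −E−N, with a log2 fold change of -0.15 (95% interval -0.31 to 0.01).

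The second question was whether the double loss went beyond each loss alone. For Sox2 and Nanog it did against −N in both media, and against −E for Sox2 in FCS/LIF and for Nanog in 2i/LIF. For Utf1 it did against −N in FCS/LIF. The calls of Utf1, of Sox2 against −E in FCS/LIF and of Sox2 against −N in 2i/LIF were lost under some alternatives, as given below. All 20 of these edgeR estimates, 5 genes against 2 states in 2 media, were below 0, and the comparisons share their −E−N libraries. For Sall4 the sign turned in limma on TPM against −N in FCS/LIF (0.14) and without −E−N replicate 3 against −E in 2i/LIF (0.02). In FCS/LIF, 1 of 5 was called against −E, beside 5.05% of genes, and 3 of 5 against −N, beside 10.1%. In 2i/LIF, 1 of 5 was called against −E, beside 13.1% of genes, and 2 of 5 against −N, beside 6.76%.

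Against −E in FCS/LIF, Sox2 fell 1.72-fold (log2 fold change -0.78, SE 0.0989, adjusted p = 0.00145). Without −E replicate 1 or −E−N replicate 2 that call was lost, at -0.69 in both. Without −E−N replicate 1 Pou5f1 was called as well (-0.65). Over all libraries Pou5f1 was lower by 1.43-fold, Sall4 by 1.27-fold and Utf1 by 1.34-fold, each with an adjusted p under 0.01 (0.00489, 0.00633 and 0.00611) but under the fold limit. Nanog was lower by 1.38-fold with an adjusted p of 0.0192.

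Against −N in FCS/LIF, Sox2 fell 2.03-fold (log2 fold change -1.02, SE 0.0992, adjusted p = 0.000168), Nanog 1.76-fold (-0.81, SE 0.111, adjusted p = 0.000949) and Utf1 1.65-fold (-0.72, SE 0.0748, adjusted p = 0.000241). Utf1 was not called in the fit of all 20 libraries (-0.73, SE 0.443, adjusted p = 0.272). Pou5f1 was lower by 1.38-fold, under the limit, and was called without −E−N replicate 1 (-0.60). Sall4 differed by -0.06 on the log2 scale, with a 95% interval from -0.20 to 0.08.

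Against −E in 2i/LIF, Nanog fell 2.49-fold (log2 fold change -1.31, SE 0.0956, adjusted p = 1.60e-06). Pou5f1 stood just under the fold limit (1.4999-fold lower, adjusted p = 0.00441) and was called by DESeq2 (-0.59) and without −E replicate 3 (-0.65), −E−N replicate 1 (-0.70) or −E−N replicate 2 (-0.66). Sox2 had a log2 fold change of -0.42 (adjusted p = 0.0343) and Utf1 of -1.11 (adjusted p = 0.0844). Against −N in 2i/LIF, Nanog fell 1.79-fold (-0.84, SE 0.0948, adjusted p = 0.000108) and Sox2 1.69-fold (-0.76, SE 0.139, adjusted p = 0.00270). Utf1 had the largest estimate, 3.56-fold lower (-1.83, SE 0.464), with an adjusted p of 0.0156. It was called by DESeq2 (adjusted p = 0.00541) and without −E replicate 1 (-1.83) or −N replicate 1 (-2.16). The Sox2 call against −N did not hold in limma on TPM or without −N replicate 2 or 3 or −E−N replicate 1 or 3, with log2 fold changes from -0.75 to -0.69.

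The single losses were also compared with each other. Between −E and −N, 0 of 5 genes were called in FCS/LIF, beside 4.42% of genes, and 0 of 5 in 2i/LIF, beside 3.94%. An unadjusted p under 0.05 was reached by 4 in FCS/LIF and 2 in 2i/LIF, and DESeq2 and limma on TPM called 0 in both media. Nanog differed in sign of this contrast between the media: its log2 fold change of −E over −N was -0.34 in FCS/LIF (adjusted p = 0.0684) and 0.47 in 2i/LIF (adjusted p = 0.00648, fold under the limit).

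**Figure D3:**
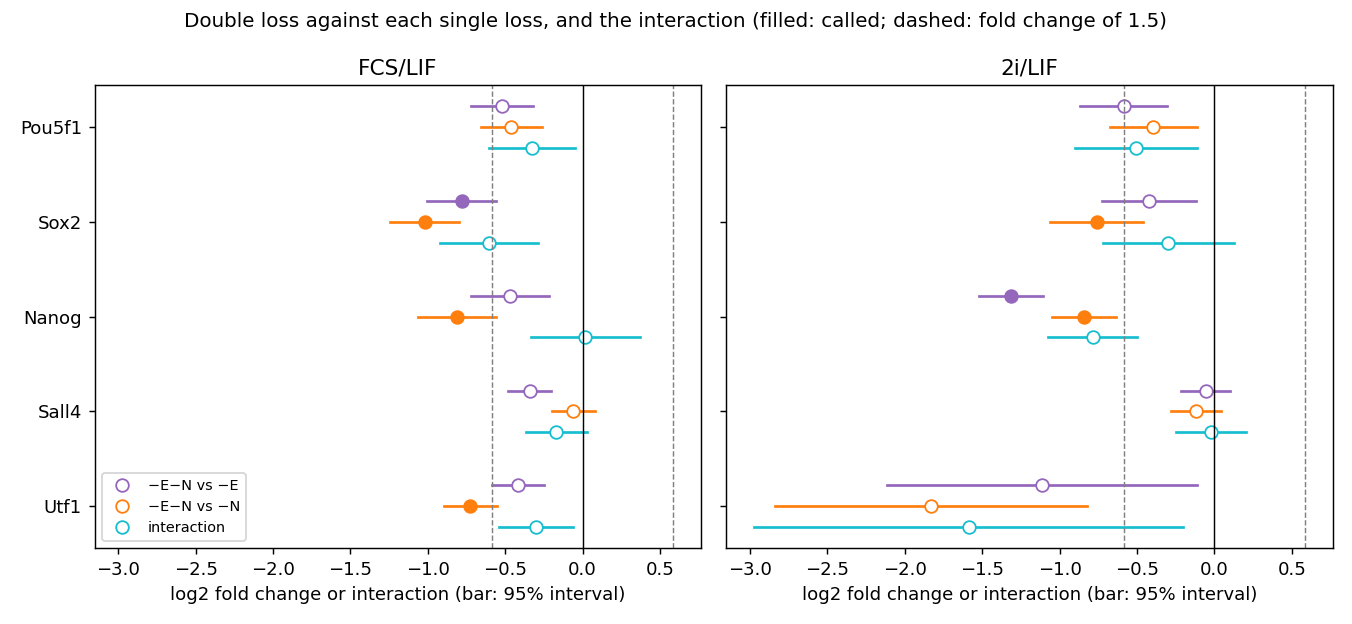
Log2 fold change of −E−N against −E and against −N, and the interaction, for each gene (points; bars are 95% intervals), FCS/LIF on the left and 2i/LIF on the right; filled points are called and dashed lines mark a fold of 1.5, which is not applied to the interaction. Sox2 and Nanog carry filled points in both media, Sall4 in neither, and no interaction is filled.

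The interaction asks whether the log2 effect of the double loss differs from the sum of the single effects. For this term, as for differences between media, only the adjusted p counted (limit 0.01) and no fold was required. It was called for 0 of 5 genes in FCS/LIF, beside 0.032% of genes, and for 0 of 5 in 2i/LIF, beside 0.307%. An unadjusted p under 0.05 was reached by 3 genes in FCS/LIF (Pou5f1, Sox2 and Utf1) and 3 in 2i/LIF (Pou5f1, Nanog and Utf1). DESeq2 called Sox2 in FCS/LIF and Nanog in 2i/LIF, and limma on TPM called 0 in both.

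Nanog in FCS/LIF had single effects that summed to -1.31 and the double loss was at -1.30, an interaction of 0.02 (95% interval -0.33 to 0.37). In 2i/LIF they summed to -0.58 against -1.37, an interaction of -0.79 (95% interval -1.08 to -0.50, adjusted p = 0.0149), and it passed without −N replicate 1 (-0.86). Sox2 in FCS/LIF summed to -0.59 against -1.20, an interaction of -0.60 (95% interval -0.92 to -0.29, adjusted p = 0.247), and in 2i/LIF to -0.58 against -0.88 (interaction -0.30, 95% interval -0.72 to 0.12). Pou5f1 in 2i/LIF summed to 0.03 against -0.47 (interaction -0.51, adjusted p = 0.224). Utf1 had the most negative estimate, in 2i/LIF, where single effects summed to 0.23 against -1.36 (interaction -1.59, 95% interval -2.97 to -0.20, adjusted p = 0.286), and in FCS/LIF its interaction was -0.30 (95% interval -0.54 to -0.06, adjusted p = 0.437). Whether an interaction differed between the media was not tested.

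The response to each loss was then compared between the media in the fit of all 20 libraries. None of the 5 genes passed for −E (0 of 5, beside 1.06% of genes), −N (0 of 5, beside 0.743%) or −E−N (0 of 5, beside 13.2%). Unadjusted, 1 gene (Nanog, −E) had a p under 0.05 for −E, and 0 genes for −N or −E−N. DESeq2 called Nanog for −E and 0 otherwise, and limma on TPM called 0.

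Nanog had the largest difference for −E, at 0.75 on the log2 scale (2i/LIF minus FCS/LIF, 95% interval 0.43 to 1.08, adjusted p = 0.0124). It passed without either −E−N library of FCS/LIF or without −N replicate 1 of 2i/LIF, at 0.77 each. Beside it stands the Esrrb level in the 2i/LIF libraries labelled −E, whose difference from +E+N was smaller in CPM than in TPM, as given above. The part of the Esrrb level in the Nanog difference was not tested. For −E−N the difference of Nanog was -0.10 (95% interval -0.43 to 0.22) and that of Sox2 was 0.28 (95% interval -0.15 to 0.71).

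The spread between libraries differed among the genes. The coefficient of variation of a gene within a state ran from 2.85% to 10.2% for Pou5f1, 6.22% to 11.5% for Sox2, 0.928% to 14.2% for Nanog and 1.80% to 5.61% for Sall4 in FCS/LIF. In 2i/LIF it ran from 0.119% to 20.9% for Pou5f1, 10.8% to 18.7% for Sox2, 4.84% to 12.5% for Nanog and 2.53% to 10.9% for Sall4. Utf1 ran from 0.0153% to 9.78% in FCS/LIF and from 35.2% to 52.7% in 2i/LIF. Counting error alone gives Utf1 between 2.59% and 4.73% in 2i/LIF. Sox2 and Utf1 had a larger SD of log2 CPM than the median gene in all 4 states of 2i/LIF, and Sall4 in 1 of 4.

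In 2i/LIF the library numbered 1 had the lowest Utf1 and the lowest Sox2 of each of the 4 states. For Utf1 it was at 23.5 against 46.4 and 48.6 CPM in +E+N and at 26.5 against 72.3 and 66.2 in −N. With the 4 libraries numbered 1 left out, an alternative chosen after seeing the data, Utf1 was called lower in −E−N against +E+N (log2 fold change -1.47, SE 0.230, adjusted p = 0.00111), against −E (-1.30, SE 0.230, adjusted p = 0.00311) and against −N (-2.01, SE 0.231, adjusted p = 0.000688). What libraries with 1 number share is not given in the labels.

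**Figure D4:**
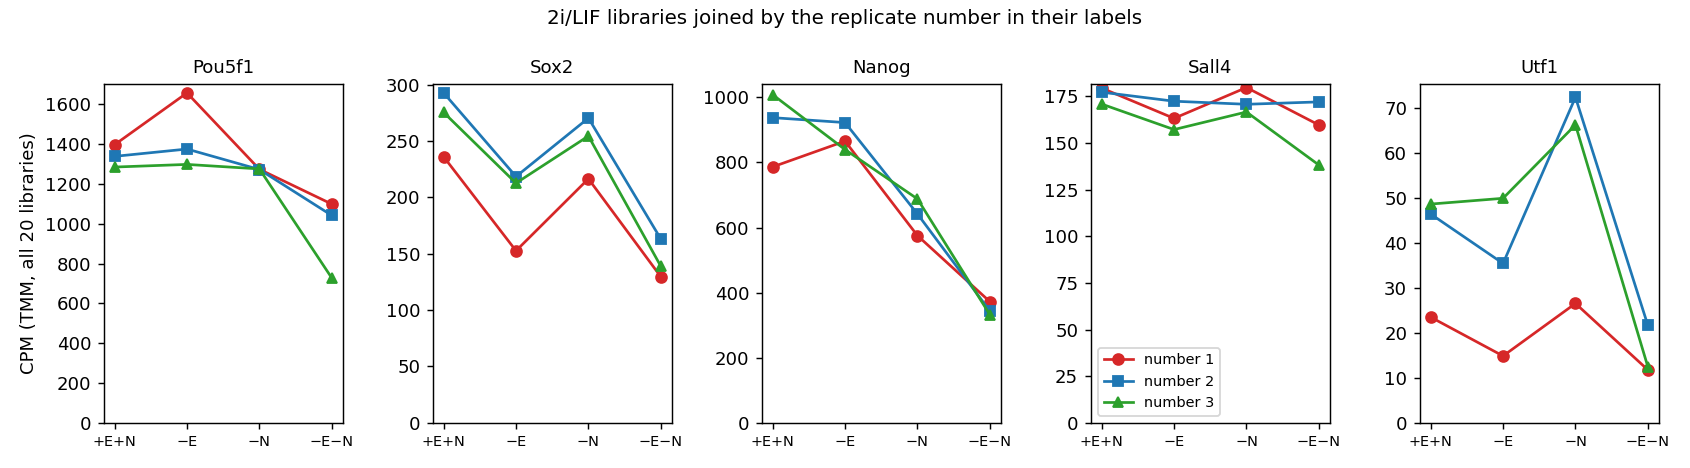
CPM of each gene (axes start at 0) in the 2i/LIF libraries of the 4 states, with lines joining libraries that have the same replicate number in their labels. The red line (number 1) is lowest in every state for Sox2 and Utf1, from 11.8 to 26.5 CPM for Utf1, and highest for Pou5f1 in +E+N, −E and −E−N.

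Ratios within a library do not depend on its scaling. In FCS/LIF there were 16.7 ± 0.202 TPM of Sox2 per 100 TPM of Pou5f1 in +E+N (SD, n = 2), 13.7 ± 0.976 for −E, 16.9 ± 0.263 for −N and 11.4 ± 0.173 for −E−N. The −E−N ratios, 11.3 and 11.5, lay below those of every other FCS/LIF library. For 2i/LIF the ratio was 12.3 ± 1.69 with both receptors (SD, n = 3), 8.47 ± 2.45 for −E, 11.9 ± 1.33 for −N and 9.51 ± 2.23 for −E−N, with −E the lowest mean and −E−N overlapping each other state. Nanog per 100 TPM of Pou5f1 in FCS/LIF was 11.1 ± 0.757 with both receptors, 6.85 ± 0.0114 for −E, 9.09 ± 0.759 for −N and 7.16 ± 1.70 for −E−N, so −E and −E−N overlapped. For 2i/LIF the Nanog ratio was 38.7 ± 6.34 with both receptors, 34.8 ± 4.42 for −E, 28.2 ± 2.40 for −N and 21.3 ± 3.97 for −E−N. The Sall4 ratio was higher in −E−N than in +E+N. For FCS/LIF it rose from 6.65 ± 0.0728 to 9.35 ± 0.522, for 2i/LIF from 4.43 ± 0.0574 to 5.56 ± 0.723. The −E ratios of Sall4 stood at 8.27 (FCS/LIF) and 3.86 (2i/LIF), the −N ratios at 6.65 and 4.41. Between +E+N and −E−N, mean Pou5f1 went from 1388 to 994 TPM (FCS/LIF) and from 1370 to 990 (2i/LIF). Mean Sall4 went from 92.3 to 92.6 TPM (FCS/LIF) and from 60.7 to 54.2 (2i/LIF). The differences of Sall4 in both media and of Pou5f1 in 2i/LIF missed the limits.

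The 5 genes were set beside lists of related genes, described by counts only, with 18.8% of all genes called in either direction in −E−N against +E+N in FCS/LIF and 18.6% in 2i/LIF as background. Of 7 other ESC markers and targets of Oct4 and Sox2, 4 were called lower and 1 higher in −E−N against +E+N in FCS/LIF (median log2 fold change -0.91, all genes 0), and 5 lower and 1 higher in 2i/LIF (median -1.39, all genes 0.01). Those lower in FCS/LIF were Fgf4, a growth factor gene with an Oct4 and Sox2 enhancer (log2 fold change -1.82), Fbxo15 (-2.02), Spp1, which encodes osteopontin (-1.90), and Dppa5a (-0.91). Lefty1, a Nodal antagonist, rose in both media, by 0.80 and 3.32. In 2i/LIF Tdgf1, a Nodal co-receptor gene, was also lower (-1.98). Of 9 naive factors such as Klf4 and Tfcp2l1, 7 were called lower in −E−N in each medium, with medians of -2.30 in FCS/LIF and -1.12 in 2i/LIF.

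Of 15 genes from the Pou, Sox and Sall families, 4 rose and 4 fell in FCS/LIF with the double loss, and 4 were higher and 1 lower of 14 tested in 2i/LIF. In FCS/LIF Sox3, a relative of Sox2 in neural progenitors, rose by 2.08 and Sox1 by 1.06, Pou3f1 (Oct6) by 0.99 and Sall2 by 0.80, while Pou2f2, Sox15, Sox21 and Sall1 were lower. In 2i/LIF Sox11 rose by 2.91 and Sall3 by 1.07. Sox2ot, which surrounds Sox2, was at 2.03 to 2.44 CPM in −E−N against 5.30 to 5.34 in +E+N in FCS/LIF (log2 fold change -1.27, adjusted p = 0.000691). The 11 NuRD subunits, partners of Sall4, ranged in FCS/LIF −E−N from -0.27 (Mta3) to 0.34 (Rbbp7), within the fold limit. In 2i/LIF −E−N, 1 of them, the histone-binding subunit gene Rbbp7, was higher (0.94), a share below that of all genes, and the list's median was -0.14 in both media. Of 14 formative and primed epiblast factors, 3 rose and 5 fell in FCS/LIF −E−N, and 3 higher and 3 lower of 13 tested in 2i/LIF.

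Summed trophectoderm and primitive endoderm markers were higher in −E−N than in +E+N in both media. Summed neural and mesoderm markers were higher in FCS/LIF, and in 2i/LIF the 2 states overlapped. The part of such cells in the values above was not tested. In these bulk samples, fewer cells that express a gene cannot be told apart from less RNA per cell. The summed level of 6 trophectoderm markers was 132 to 152 CPM in FCS/LIF +E+N and 331 to 437 in −E−N (224 to 266 in −N), and 72.7 to 86.3 and 151 to 218 CPM in 2i/LIF. Of these 6, 5 were called higher in −E−N in FCS/LIF and 3 of 4 tested in 2i/LIF, with none at 0 in any state. The sum of 7 primitive endoderm markers was 27.7 to 35.0 CPM in FCS/LIF +E+N, 53.4 to 53.8 for −E and 55.4 to 58.1 for −E−N. There 1 of the 7 was called higher in −E−N, Dab2 (mean 12.7 to 38.2 CPM), the median log2 fold change was -0.07, and Gata6 was at 4.94 and 2.35 CPM. In 2i/LIF the sum was 5.27 to 8.63 CPM and 11.4 to 14.2 in −E−N, with 2 called higher and 1 lower of 5 tested. The sum of 6 neural markers, mostly Nes, was 51.2 to 51.6 CPM in FCS/LIF +E+N, 114 to 121 for −E and 175 to 177 for −E−N, with 2 called higher in −E−N and 1 lower of 4 tested (Pax6, mean 8.72 to 3.56 CPM). It lay at 37.9 to 47.2 and 39.9 to 55.7 CPM in 2i/LIF, where Neurog2 and Olig2 were at 0 in −E−N. There 2 of the 6 were also at 0 in −E, 1 in +E+N and 1 in −N. The sum of 5 mesoderm and streak markers was 4.81 to 7.01 CPM in +E+N and 11.3 to 11.7 in −E−N in FCS/LIF, and 13.4 to 15.0 and 6.93 to 14.7 in 2i/LIF. Of 4 tested, 2 were called higher in −E−N in FCS/LIF, and 1 higher and 2 lower in 2i/LIF.

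Genes with the most similar pattern were found by the root mean square difference of the 6 log2 fold changes against +E+N, among 10755 other genes that averaged 100 counts or more in both media. The closest to Nanog were Isoc2a (0.139 log2 units), Lifr, which encodes the LIF receptor (0.171), and Csad (0.176). For Sox2 they were Rpp25 (0.138), Sod2 (0.139) and Pipox (0.145). For Pou5f1 they were Ttc26 (0.0756), Aldh6a1 (0.0768) and Zcchc10 (0.0874), for Sall4 Btbd2 (0.0260), Pfas (0.0403) and Hcfc1 (0.0460), and for Utf1 Gna15 (0.200), Slc7a3 (0.242) and Prdm16 (0.263). Among the members the closest pair was Pou5f1 and Sall4 (0.253) and the farthest Nanog and Sall4 (0.799).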

How the data were processed

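Tables of expected counts and TPM for 20 mouse ESC libraries were used as deposited. Per the study's methods, the authors mapped paired stranded reads on mm10 with STAR and summarised them per gene with RSEM, whose expected counts were deposited as whole numbers with no normalization. The TPM values are the authors' RSEM output. RSEM divides reads shared by near-identical copies by estimation. Of the 54238 rows, 92 for ERCC spikes held 0 and were set aside. In R 4.3.3, edgeR 4.0.16 fitted the 4 states of each medium together (TMM, quasi-likelihood test, Benjamini-Hochberg adjustment over all tested genes). Genes needed 20 counts in every replicate of 1 state or more, which left 15636 (FCS/LIF) and 14355 (2i/LIF). Media were compared in 1 fit of all 20 libraries (16147 genes). Calls required an adjusted p below 0.01 and a change above 1.5-fold, as in the study. SE is the log2 fold change divided by the root of F, and 95% intervals use the t distribution with the degrees of freedom of that fit. An exact permutation test cannot go below p = 0.333 with n = 2 per state, or 0.1 with n = 3. Counting error, from 0.433% to 4.73% per library for the 5 genes, was smaller than the spread between libraries in most states. The exceptions were Utf1 in FCS/LIF −E, Nanog in FCS/LIF −N and Pou5f1 in 2i/LIF −N.

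The genes named are the 5 members, the lists of related genes and, for each member, the 3 genes with the closest pattern. Members and lists were chosen with earlier results of these data known. Alternatives were DESeq2 1.42.0 without independent filtering, its size factors, no TMM factor, no filter on low counts, filterByExpr, the replicate number as a block, a fit of all 20 libraries, limma 3.58.1 on log2 of TPM plus 1 or plus 0.1, and each library left out. Coordinates come from GENCODE vM21 and promoter sequence from RefSeq. The fits were tested on simulated data. ChIP-seq (69 libraries) was not analysed here.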

Additional observations from a re-analysis of the deposited data

How the results depend on the processing

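Of 845 member values under settings other than leaving out a library, 786 kept their direction and side of the limits, 7 lost the call, 29 gained one and 23 changed sign. With a library left out, 1049 of 1100 kept both. The cause of these changes was not tested. Each state had 2 or 3 libraries.

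Numbers of members called changed as follows. For the interaction in FCS/LIF, DESeq2 and no filter each gave 1 (Sox2) against 0. For −E−N against −E in 2i/LIF, DESeq2, its size factors, no filter, filterByExpr, the fit of all 20 libraries and the 2i/LIF libraries numbered 1 left out each gave 2 against 1. For −E−N against −N in 2i/LIF, limma with either pseudocount gave 1 against 2, and DESeq2, no filter, the fit of all 20 libraries and the libraries numbered 1 left out each gave 3 by adding Utf1. For −E−N against +E+N in 2i/LIF, no filter and the libraries numbered 1 left out each gave 3 against 2, also by adding Utf1. In FCS/LIF, −E−N against +E+N gave 3 against 4 with no TMM factor and in limma (without Pou5f1) and in the fit of all 20 libraries (without Utf1), which also gave 2 against 3 for −E−N against −N. For the interaction in 2i/LIF, DESeq2, no filter, the fit of all 20 libraries and the libraries numbered 1 left out gave 1 against 0. For the response difference to −E, DESeq2 and no filter gave 1 against 0, and no filter also gave 1 (Utf1) for −N and 1 (Utf1) for −E−N. With 1 library left out, the ranges were 0 to 1 for −E, 0 to 2 for −E−N against −E and 3 to 4 for −E−N against +E+N and against −N in FCS/LIF, and in 2i/LIF 0 to 1 for −N, 2 to 3 for −E−N against +E+N, 1 to 2 for −E−N against −E, 1 to 3 for −E−N against −N and 0 to 1 for the interaction. For the response difference to −E the range was 0 to 1.

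The labels do not say whether libraries with the same replicate number form pairs, and the main fits did not use the number. Deviations of same-numbered libraries correlated from -0.0027 to 0.632 in 2i/LIF (17 of 18 above 0.1, and 17 of 18 highest with their own number) and from 0.092 to 0.486 in FCS/LIF. With the replicate number as a block, calls were 3 for −E−N against −E in 2i/LIF (Pou5f1, Nanog and Utf1), 3 against 2 for −E−N against +E+N (with Utf1 at -1.31, adjusted p = 0.000169) and against −N (with Utf1 at -1.74, adjusted p = 4.48e-05), 1 for the interaction in FCS/LIF (Sox2), 1 for that in 2i/LIF (Nanog) and 1 for the response difference to −E (Nanog).

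Values near 0 changed sign. In limma on TPM plus 1 and plus 0.1, Sall4 in FCS/LIF gave 0.0042 and 0.0042 for −E−N against +E+N and 0.138 and 0.139 against −N, and in 2i/LIF 0.0554 and 0.0561 for the interaction. The interaction of Nanog in FCS/LIF was -0.0027 by DESeq2, -0.0027 with its size factors, -0.0021 in the fit of all 20 libraries, and -0.0096 and -0.0116 in limma. Pou5f1 between media was -0.0165 with no filter, -0.0185 and -0.0185 in limma and -0.0110 without the libraries numbered 1. For response differences, limma gave -0.0540 and -0.0660 for Utf1 (−E), -0.0120 and -0.0122 for Sox2 (−N), -0.0041 and -0.0041 for Pou5f1 (−E−N) and -0.172 and -0.175 for Sall4 (−E−N). With 1 library left out, the ranges that crossed 0 were, in FCS/LIF, -0.0303 to 0.161 for Pou5f1 (−E against −N) and -0.169 to 0.155 for Nanog (interaction). In 2i/LIF they were -0.0110 to 0.175 for Pou5f1, -0.151 to 0.0289 for Nanog and -0.655 to 0.104 for Utf1 in −E, -0.137 to 0.0200 for Sall4 (−E−N against −E) and -0.107 to 0.0551 for Sall4 (interaction). Between media they were -0.0509 to 0.107 for Pou5f1 in +E+N. For response differences they were -0.161 to 0.0716 for Sox2 and -0.244 to 0.509 for Utf1 (−E), -0.0433 to 0.147 for Sox2 and -0.209 to 0.0887 for Nanog (−N), and -0.258 to 0.0789 for Nanog and -0.0069 to 0.156 for Sall4 (−E−N).

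Numbers over all genes moved more. In FCS/LIF, calls ranged over settings from 445 to 1631 for −E, 7 to 548 for −N, 437 to 1571 for −E−N against −E, 920 to 2556 against −N, 307 to 1431 for −E against −N and 0 to 242 for the interaction. In 2i/LIF they ranged from 136 to 596 for −E, 309 to 1115 for −N, 682 to 1622 for −E−N against −N, 374 to 1241 for −E against −N and 7 to 324 for the interaction. For response differences they ranged from 119 to 728 (−E), 56 to 809 (−N) and 1796 to 3703 (−E−N).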
